A study of Mus musculus with 4 samples.

Results

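Class II odorant receptor (OR) genes were examined in RNA-seq of sorted cells of the mouse main olfactory epithelium (MOE). The members were all genes numbered from Olfr763 to Olfr981, with no suffix to the symbol, which gave 163 of the 24421 genes measured and 163 of the 1125 OR genes. The rule itself reads gene symbols alone, while the set was proposed with earlier results of these data known. Cells came from 2 transgenic lines, each kept from 1 founder. In TAAR enhancer 1-GFP mice, an enhancer of the trace amine-associated receptor (Taar) gene cluster stood before the minimal promoter of the heat shock gene Hsp68 and GFP. In TAAR enhancer 2-tdTomato mice, the other enhancer of that cluster stood before the same promoter and tdTomato, and the PiggyBac transposon carried both transgenes. Fluorescence-activated cell sorting gave reporter-positive and reporter-negative cells of each line, and each of the 4 groups was 1 library. The labels gave all animals as adult C57BL/6, while the study's reporting summary described younger mice of mixed C57BL/6J and 129 background. The design asks which receptor genes the cells with an active enhancer reporter express.

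ORs are G protein-coupled receptors of olfactory sensory neurons (OSNs), and each mature OSN expresses, as a rule, a single OR allele out of the whole family. Class II ORs form many clusters spread over the genome, while the class I ORs of the mouse share a cluster on chromosome 7. The OR on the cilia couples through the G protein subunit encoded by Gnal to adenylyl cyclase 3 (Adcy3) and to a cyclic nucleotide-gated channel (Cnga2, Cnga4, Cngb1). TAAR OSNs use a receptor of another family in place of an OR.

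Of the members, 161 had a position in the GENCODE M21 annotation (GRCm38), where they formed 3 clusters. The first cluster of chromosome 9 held 30 members (chr9:18814728-20303599), and the second held 75 (chr9:37745106-40030377). The cluster of chromosome 10 held 56 members (chr10:129010791-130214403) and lay 104.9 Mb from the Taar cluster of the same chromosome (chr10:23920356-24109534). Olfr899 and Olfr900 had no position and were listed at 0 in every library. The annotation named 158 of the 161 protein coding and 3 polymorphic pseudogenes, and their coding sequences had a median length of 936 bases (range 915 to 993). Another 22 OR genes that the rule left out, which reads both the number and any suffix, lay in the same clusters.

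Many members share sequence with other OR genes, which bears on how reads are shared out among them, and 1 aligned coding stretch is shown first to let their differences be seen. The members' consensus for this run of 30 coding bases stands on the first line, and capitals in the genes below it mark bases that differ from the consensus. The 4 genes are the highest member of GFP-negative cells (Olfr810, bases 163 to 192 of its coding sequence), of tdTomato-negative cells (Olfr969, bases 169 to 198), of tdTomato-positive cells (Olfr958, bases 169 to 198) and the member whose lowest level over the libraries was highest (Olfr826, bases 178 to 207).
Consensus: acacccatgtacttcttcctctgcaatttg
Olfr810: acacccatgtaTttTttcctTCgGaatttT
Olfr969: acacccatgtacttTttTctcAgcaGtCtg
Olfr958: acacccatgtaTttTttcctGGgGaaCttg
Olfr826: acaccAatgtaTttcttcctAGgcaaCCtC
The 161 members differed from the consensus at a median of 7 bases, the other 949 OR genes with a coding sequence differed at a median of 8, and no gene matched it in full. The largest count among members, 16, was that of the polymorphic pseudogene Olfr936. Its best match by whole codons lay at bases 352 to 381, another part of the gene. Olfr924 and Olfr926 came next with 12. At most 3 differences were found in 4 of the 161 members (2.48%) and in 14 of the other 949 (1.48%). Close matches in bases were thus rare in both sets, and the stretch was not particular to the members. How far the encoded residues are shared was not examined. Among the members, 120 shared at least 1 window of 50 bases with another OR gene, and 11 shared at least 50% of their windows. Coding sequences of 35 members were at least 95% identical to that of another OR gene.

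The closest pair of members that were both above 0 in some library was Olfr823 (chr10:130111527-130115383, minus strand) and Olfr824 (chr10:130123470-130130000, minus strand). Their coding sequences were 98.7% identical, with 12 differences over 945 bases, and shared an unbroken run of 484 bases. Bases 56 to 145 hold 3 of the differences, which are in capitals.
Olfr823: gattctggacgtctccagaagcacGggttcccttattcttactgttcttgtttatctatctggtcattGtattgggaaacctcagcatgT
Olfr824: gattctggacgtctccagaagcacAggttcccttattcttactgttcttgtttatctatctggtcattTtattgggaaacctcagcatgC
Olfr823 was at 5.34 TPM in tdTomato-negative cells and was listed at 0 in the other 3 libraries. Olfr824 was at 5.68 TPM in GFP-negative against 0.821 TPM in GFP-positive cells and was listed at 0 in both libraries of the tdTomato line. TPM (transcripts per 1000000 transcripts) is scaled for gene length, so levels of different genes can be set side by side, but which of such near-identical genes a read belongs to depends on the authors' quantification. The levels of this pair are therefore uncertain, and so are those of Olfr765 and Olfr767 (98.2% identical), of Olfr777 and Olfr800 (96.8% identical), of Olfr782 and Olfr804 (96.7% identical) and of Olfr775 and Olfr776 (96.0% identical). The same uncertainty holds for members whose near-identical partner was listed at 0 in every library. Olfr772, at 21.6 TPM in GFP-negative cells, was 99.2% identical to Olfr773, Olfr955, at 12.6 TPM there, was 98.1% identical to Olfr952, and Olfr870, at 6.66 TPM there, was 97.5% identical to Olfr871.

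In reporter-negative cells most members were measured, at low levels each. Members above 0 numbered 118 of 163 (72.4%) in GFP-negative and 89 of 163 (54.6%) in tdTomato-negative cells, against 76.9% and 61.4% of other OR genes and 67.1% and 64.1% of all genes. Their median levels were 12.7 and 13.7 TPM, against medians of 15.3 and 20.8 TPM for other OR genes above 0. The 163 members summed to 2299 TPM in GFP-negative cells and to 1970 TPM in tdTomato-negative cells. The members thus held 12.5% and 9.53% of all OR TPM, while they are 14.5% of the OR genes. The 10 highest members held 30.1% of the members' TPM in GFP-negative and 38.9% in tdTomato-negative cells.

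In reporter-positive cells fewer members were above 0, and their levels were lower, which held for the other OR genes too. In GFP-positive cells 72 members (44.2%) were above 0, with a median of 2.2 TPM and a sum of 209.1 TPM. The share was close to the 46.5% of other OR genes, while 69.0% of all genes were above 0 there. In tdTomato-positive cells 32 members (19.6%) were above 0, with a median of 6.62 TPM and a sum of 274.3 TPM, against 25.3% of other OR genes and 61.8% of all genes. At least 5 TPM was reached by 98 members in GFP-negative, 7 in GFP-positive, 77 in tdTomato-negative and 18 in tdTomato-positive cells. In the reporter-positive libraries these were 4.29% and 11.0% of the members, against 7.48% and 19.4% of other OR genes and 45.4% and 48.4% of all genes. The members' TPM was held by fewer genes in reporter-positive cells: the 10 highest held 42.6% in GFP-positive and 63.3% in tdTomato-positive cells. The 10 highest of the other OR genes also held more in reporter-positive cells, 13.8% against 6.80% in the GFP line and 34.5% against 10.04% in the tdTomato line. Of all 163 members, 13 were above 0 in all 4 libraries, 23 were listed at 0 in all 4, and 78 were listed at 0 in both reporter-positive libraries. These were 7.98%, 14.1% and 47.9% of the members, against 12.9%, 13% and 44.9% of other OR genes and 55.4%, 24.6% and 29.1% of all genes. In such bulk libraries, fewer cells of a type and less RNA per cell cannot be told apart. With 1 library per group there is no replicate check on any difference given here, and no test was made.

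**Figure D1:**
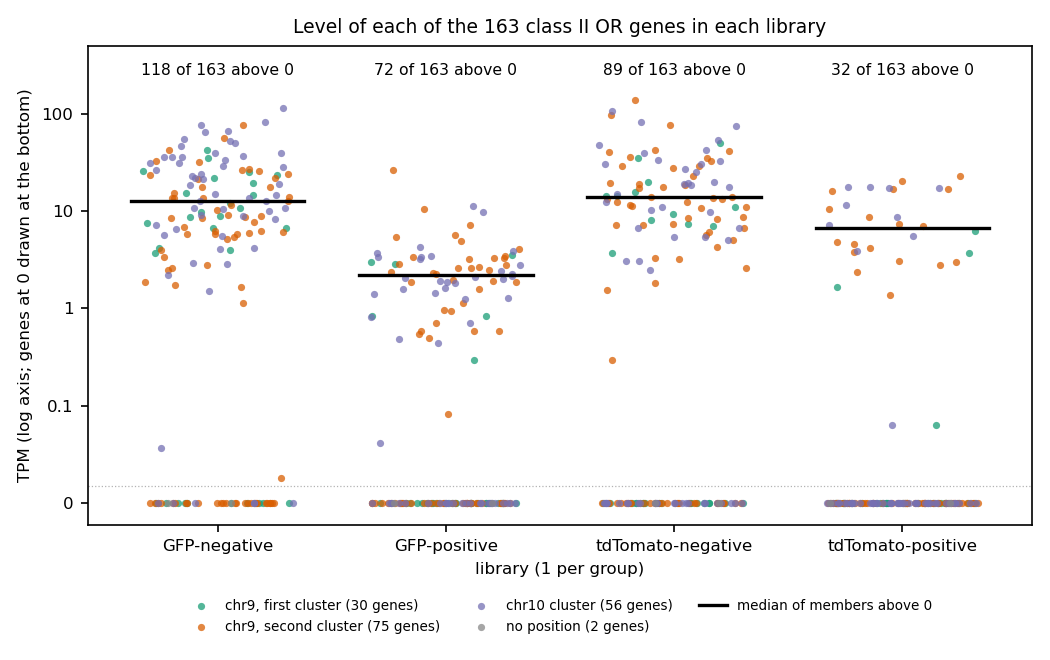
Level of each of the 163 class II OR genes (1 point per gene) in each of the 4 libraries, in TPM on a log axis, with genes listed at 0 drawn along the bottom and coloured by cluster. The black line is the median of the members above 0, which was 12.7 TPM in GFP-negative, 2.2 in GFP-positive, 13.7 in tdTomato-negative and 6.62 in tdTomato-positive cells.

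The libraries also differed in markers of other cell types. The highest gene was Omp, a marker of mature OSNs, in both reporter-negative libraries, while Bpifb9b, a secretory gene, was highest in GFP-positive and Bpifa1, another secretory gene, in tdTomato-positive cells. All 12 mature OSN markers were above 0 in every library, and their summed level was 28264 TPM in GFP-negative, 3131 in GFP-positive, 29123 in tdTomato-negative and 13119 in tdTomato-positive cells. All 5 Bowman gland markers were at least 2-fold higher in the reporter-positive cells of both lines, with sums of 2343, 111773, 6855 and 55267 TPM in the same order. Multiciliated cell markers summed to 546.3 to 5975 TPM and were higher by at least 2-fold for 4 of 5 (GFP line) and 5 of 5 (tdTomato line). Their Ccdc153 was listed at 0 in GFP-negative cells. Sustentacular cell markers (498.6 and 594.9 TPM in tdTomato-positive and tdTomato-negative, 2093 and 412.9 in GFP-positive and GFP-negative cells) were higher for 5 of 5 in the GFP line, and for 1 with 2 lower in the tdTomato line. Horizontal basal cell markers summed to 27.9 to 599.5 TPM and were higher for 4 of 4 in the GFP line and lower for 4 of 4 in the tdTomato line. Microvillar cell markers (48.3 to 252.7 TPM) were higher for 3 and lower for 1 of 5 in the GFP line, and lower for 2 of 5 in the tdTomato line. Of the haematopoietic markers (981.9 to 2060 TPM), 3 of 5 were lower in each line, 1 was higher in the tdTomato line, and Hbb-bs was listed at 0 in all libraries. Immature OSN markers (359.9 to 1537 TPM) were lower for 5 of 5 in the GFP line and 2 of 5 in the tdTomato line. The part of these differences in the members' levels was not tested.

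In the GFP line, most measured members were lower in GFP-positive than in GFP-negative cells. Of the 129 members above 0 in either library, 111 (86.0%) were at least 2-fold lower on the log2(TPM + 1) scale. Of all genes measured 40.5% were, and of other OR genes 87.3%. At least 2-fold higher were 11 (8.53%), against 12.8% of all genes and 4.05% of other OR genes. Of the 111, 57 (51.4%) were listed at 0 in GFP-positive cells, against 48.7% of the other OR genes and 11.5% of all genes that were lower. The 1 TPM added to each value understates the change of genes with low levels. The median log2 fold change of the measured members was -2.84, against -0.74 for all genes and -2.95 for the other OR genes. Over the 61 members above 0 in both libraries the median log2 ratio of TPM, with nothing added, was -2.86, against -3.23 for other OR genes. Summed TPM was 11.0-fold lower for the members (log2 ratio -3.46) and 11.9-fold lower for the other OR genes. The sum and the median stayed below 0 on the log2 scale under each of 3 other scalings of the libraries. The members' share of OR TPM was 12.5% in GFP-negative and 13.4% in GFP-positive cells.

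Markers of mature OSNs were lower here too. The 12 markers had a median log2 fold change of -3.02 (range -3.53 to -2.73), and 45 of the 129 members (34.9%) lay below all 12 markers while 61 (47.3%) lay above all of them. The other OR genes had similar shares, 35.7% below and 44.9% above, while 4.08% of all genes lay below and 92.0% above. On the log2(TPM + 1) scale, a member with a low level in GFP-negative cells lies above the markers even when listed at 0 in GFP-positive cells. Olfr763, for example, was at 5.52 TPM and 0, with a log2 fold change of -2.70. The 61 therefore do not count members that fell less than the markers. Per 1000 TPM of mature OSN markers, the members held 81.3 TPM in GFP-negative against 66.8 TPM in GFP-positive cells. Members that were lower in any degree were 87.6% of those measured with the deposited values and 65.1% (84 lower, 45 higher) after the libraries were scaled to the same mature OSN marker level. Of the other OR genes 92.4% and 70.6% were lower, and of all genes 71.5% and 13.4%, so the share dropped with this scaling in each set.

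The highest member of GFP-negative cells was Olfr810 (chr10:129787289-129794917), which was at 115.0 TPM there, 2.03 in GFP-positive and 10.3 in tdTomato-negative cells and was listed at 0 in tdTomato-positive cells. Its log2 fold change in the GFP line was -5.26. Olfr786 was at 81.1 TPM in GFP-negative and 30.3 TPM in tdTomato-negative cells and was listed at 0 in both reporter-positive libraries. The same held for Olfr788, at 46.2 and 32.5 TPM, and for Olfr818, at 27.9 and 75.3 TPM. These 3 had the highest levels, by the lower of the reporter-negative values, of the 78 members listed at 0 in both reporter-positive libraries. Olfr792 went from 65.5 TPM in GFP-negative to 0.0416 TPM in GFP-positive cells, but was also listed at 0 in tdTomato-negative cells. The other large differences among members above 0 in both libraries of the GFP line were those of Olfr961 (23.4 against 0.0823 TPM), Olfr825 (29.2 against 0.444 TPM) and Olfr874 (31.9 against 0.584 TPM). Of the 68 members with at least 10 TPM in GFP-negative cells, 30 (44.1%) were listed at 0 in GFP-positive cells, where 2.85% of all genes and 38.7% of other OR genes at that level were.

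A few members kept the highest levels in GFP-positive cells. Olfr969 (chr9:39790945-39796635) was at 77.1 TPM in GFP-negative, 26.1 in GFP-positive and 138.3 in tdTomato-negative cells and was listed at 0 in tdTomato-positive cells. This receptor held 12.5% of the members' TPM in GFP-positive cells, and was the highest member of that library and of tdTomato-negative cells. Olfr957 was at 27.1 TPM in GFP-negative against 10.6 TPM in GFP-positive cells, and Olfr791 at 36.0 and 9.69 TPM. Olfr916 was at 42.2 and 7.21 TPM. The log2 fold changes of these 4 members in the GFP line, -1.53, -1.28, -1.79 and -2.39, all had the opposite sign (0.49 to 1.63) once the libraries were scaled to mature OSN markers. This is not particular to them. They were named for a high level in GFP-positive cells, and the scaling moved the median log2 ratio of all genes by 3.06. With it, 13.4% of all genes were lower.

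Olfr826 (chr10:130178471-130184186) was the exception among members of at least 5 TPM in GFP-positive cells. It was at 8.27 TPM in GFP-negative, 11.2 in GFP-positive, 17.8 in tdTomato-negative and 17.5 in tdTomato-positive cells, so that its level in reporter-positive cells was close to or above that of reporter-negative cells in both lines. Its log2 fold change was 0.40 in the GFP line and -0.02 in the tdTomato line. Its coding sequence was 94.7% identical to that of its neighbour Olfr825, and 59.6% of its 50-base windows occurred in another OR gene, so its level cannot be fully told apart from that of genes with the same windows. The 11 members at least 2-fold higher in GFP-positive cells were all low there, at 1.13 to 4.86 TPM, and 9 of them were listed at 0 in GFP-negative cells.

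**Figure D2:**
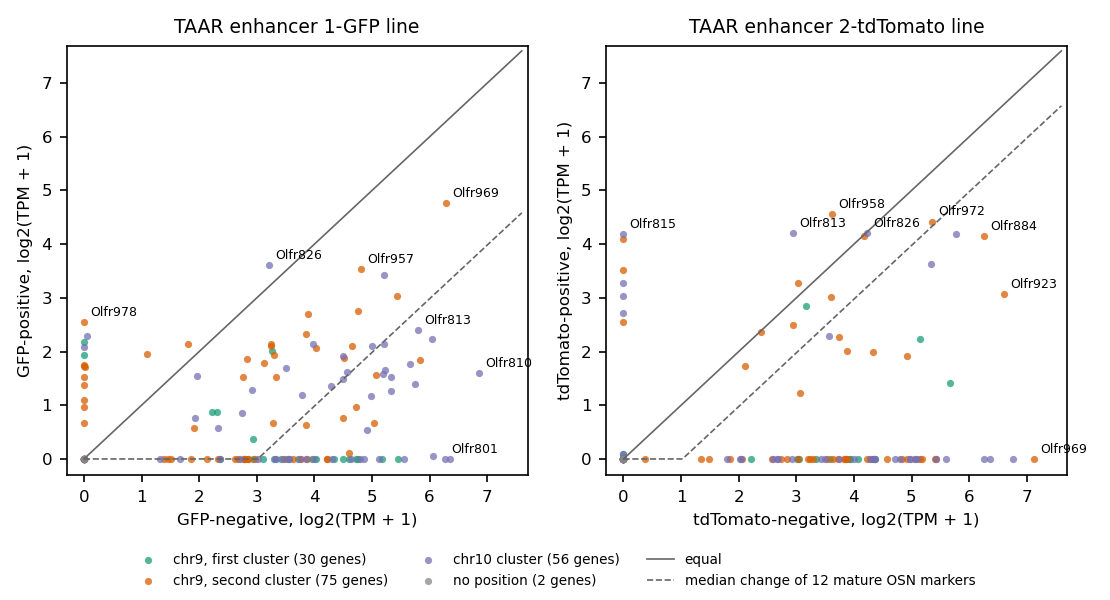
Level of each member in reporter-negative (x axis) and reporter-positive cells (y axis) of the GFP line (left) and the tdTomato line (right), in log2(TPM + 1), with points coloured by cluster. The solid line marks equal levels and the dashed line the median change of the 12 mature OSN markers (-3.02 left, -1.02 right, not drawn below 0). Most members lie below the solid line in both lines, and 75 of 98 in the tdTomato line lie below all 12 markers.

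In the tdTomato line the members were again lower in reporter-positive cells, and their summed TPM differed by more than that of the mature OSN markers. Of the 98 members above 0 in either library, 77 (78.6%) were at least 2-fold lower in tdTomato-positive cells. Of all genes measured 21.9% were, and of other OR genes 76.2%. At least 2-fold higher were 8 (8.16%), against 16.2% of all genes and 11.7% of other OR genes. Of the 77, 65 (84.4%) were listed at 0 in tdTomato-positive cells, against 79.6% of the other OR genes and 36.4% of all genes that were lower. The median log2 fold change of the measured members was -3.13, against -0.19 for all genes and -3.17 for other OR genes. Summed TPM was 7.18-fold lower for the members (log2 ratio -2.84) and 3.74-fold lower for the other OR genes. The 12 mature OSN markers had a median log2 fold change of -1.02 (range -1.46 to -0.76), and 75 members (76.5%) lay below all 12 markers while 20 (20.4%) lay above all of them. For other OR genes these shares were 72.3% and 22.7%, and for all genes 15.1% and 71.8%. Of the 75 members, 64 were listed at 0 in tdTomato-positive cells. Over the 23 members above 0 in both libraries the median log2 ratio of TPM, with nothing added, was -1.48, close to the lowest of the markers, against -1.25 for other OR genes. Per 1000 TPM of mature OSN markers, the members held 67.7 TPM in tdTomato-negative against 20.9 TPM in tdTomato-positive cells.

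The members' share of OR TPM was 9.53% in tdTomato-negative and 5.19% in tdTomato-positive cells. OR genes of chromosome 7, which include the class I genes, differed in the opposite direction, and the 236 genes held 26.4% of OR TPM in tdTomato-negative and 55.7% in tdTomato-positive cells. Their summed TPM differed by a log2 ratio of -0.89, while their median log2 fold change was -2.51, and 10 of these genes, led by Olfr649 at 319.4 TPM, held 57.9% of the set's TPM in tdTomato-positive cells. The 287 OR genes of chromosome 2, another large class II set, held 21.1% and 15.9% of OR TPM. In the GFP line chromosome 7 genes held 28.3% and 35.3%, and chromosome 2 genes 19.7% and 18.3%.

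**Figure D3:**
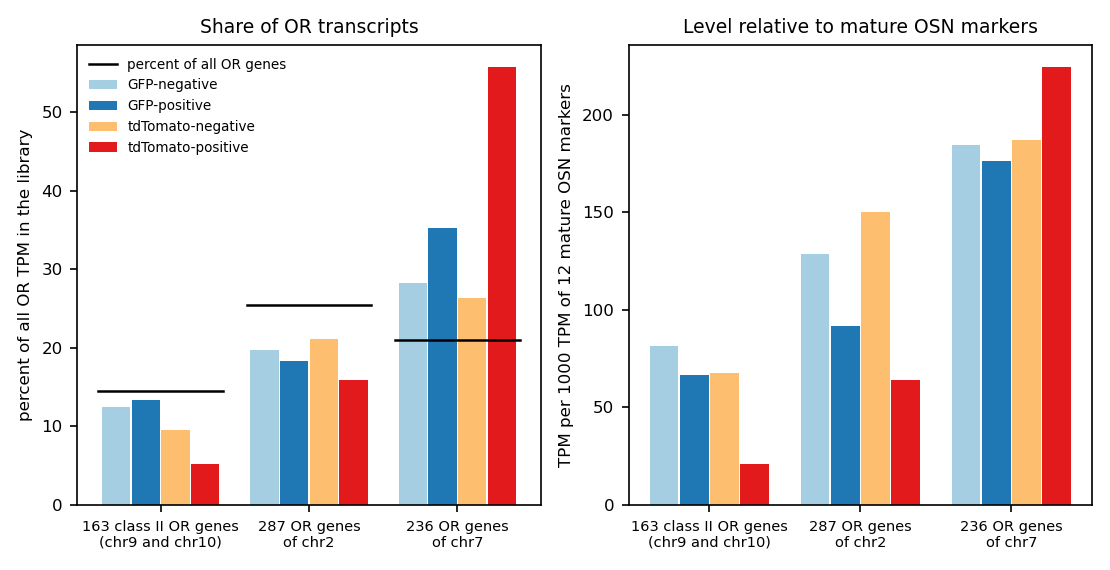
Left: percent of all OR TPM held by the 163 class II OR genes of chromosomes 9 and 10, the 287 OR genes of chromosome 2 and the 236 of chromosome 7 in each library, with a black line at each set's percent of the 1125 OR genes. Right: the same sets in TPM per 1000 TPM of 12 mature OSN markers, where the members were at 81.3, 66.8, 67.7 and 20.9 in GFP-negative, GFP-positive, tdTomato-negative and tdTomato-positive cells.

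Of the 58 members with at least 10 TPM in tdTomato-negative cells, 42 (72.4%) were listed at 0 in tdTomato-positive cells, where 4.89% of all genes and 65.5% of other OR genes at that level were. Olfr969 and Olfr791 (107.2 TPM in tdTomato-negative cells) were among them, and so was Olfr820, which was at 64.8 TPM in GFP-negative, 3.69 in GFP-positive and 81.1 in tdTomato-negative cells. Among members above 0 in both libraries of the line, Olfr868 was at 49.7 TPM in tdTomato-negative against 1.67 TPM in tdTomato-positive cells. Olfr923 was at 96.4 and 7.41 TPM in this line, and at 2.49 and 3.39 TPM in the GFP line, so that its level in tdTomato-negative cells was not shared by the other reporter-negative library. Olfr918 (29.1 and 2.78 TPM), Olfr847 (34.6 and 3.71 TPM) and Olfr924 (19.2 and 3.0 TPM) were also lower.

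Of the 72 members above 0 in GFP-positive cells 26.4% were also above 0 in tdTomato-positive cells, and of the 32 above 0 in tdTomato-positive cells 59.4% were above 0 in GFP-positive cells. For other OR genes these shares were 35.8% and 65.8%, and for all genes 86.8% and 96.8%. Olfr958 (chr9:39547958-39554054) was at 22.7 TPM in tdTomato-positive, 11.2 in tdTomato-negative, 15.3 in GFP-negative and 3.19 in GFP-positive cells. Olfr972 was at 20.4 TPM in tdTomato-positive and 39.8 TPM in tdTomato-negative cells. Olfr801 was at 17.3 TPM in tdTomato-positive, 53.9 in tdTomato-negative and 75.7 in GFP-negative cells, and was listed at 0 in GFP-positive cells. Olfr826, described above, was among the 5 highest members of both reporter-positive libraries. Olfr884 was the highest in tdTomato-negative cells of those that stayed above 10 TPM in tdTomato-positive cells, with 75.9 and 16.8 TPM.

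Of the 8 members at least 2-fold higher in tdTomato-positive cells, 7 had a listed value of 0 in tdTomato-negative cells. All 8 were at 4.85 to 17.5 TPM in tdTomato-positive cells. Olfr815 was at 17.2 TPM in tdTomato-positive and 6.55 TPM in GFP-negative cells, and Olfr912 at 16.1 and 5.19 TPM. Olfr915, an annotated polymorphic pseudogene, was at 10.5 and 2.62 TPM, Olfr774 at 8.75 and 14.9 TPM, and Olfr806 at 7.21 and 21.5 TPM. Olfr811, named after its values were seen, was at 5.54 and 31.1 TPM. Of the 7 members listed at 0 in tdTomato-negative cells these 6 (85.7%) were thus above 0 in the reporter-negative cells of the other line, as were 79.2% of such other OR genes and 49.4% of such genes overall. The exception was Olfr914, also named after its values were seen, which was at 4.85 TPM in tdTomato-positive cells and was listed at 0 in the other 3 libraries. Olfr813 was the 1 member of the 8 with a level above 0 in tdTomato-negative cells, at 6.68 TPM there and 17.5 TPM in tdTomato-positive cells, while in the GFP line it was at 54.5 TPM in reporter-negative and 4.25 TPM in reporter-positive cells.

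The 3 clusters differed in how much of their level was left in reporter-positive cells. In the GFP line the first cluster of chromosome 9 had the largest difference, with a log2 ratio of summed TPM of -4.75, against -2.51 for the second cluster and -4.06 for the chromosome 10 cluster. Median log2 fold changes of the measured members were -3.49 (22 members), -1.99 (56 members) and -3.40 (51 members). All 11 members of the first cluster with at least 10 TPM in GFP-negative cells were listed at 0 in GFP-positive cells, against 6 of 22 (27.3%) in the second and 13 of 35 (37.1%) in the chromosome 10 cluster, beside 38.7% of other OR genes and 2.85% of all genes at that level. Among those of the first cluster were Olfr849 at 42.6 TPM, Olfr835 at 35.2 TPM and Olfr860 at 26.0 TPM in GFP-negative cells. By this share at 0 the order of the clusters was not the same in the tdTomato line. Of members with at least 10 TPM in tdTomato-negative cells, 5 of 7 (71.4%) of the first cluster, 19 of 29 (65.5%) of the second and 18 of 22 (81.8%) of the chromosome 10 cluster were listed at 0 in tdTomato-positive cells, against 65.5% of other OR genes and 4.89% of all genes. The second cluster held 7.63% of OR TPM in GFP-positive and 3.69% in GFP-negative cells, but 2.96% in tdTomato-positive and 4.64% in tdTomato-negative cells. Olfr969 alone held 21.9% of that cluster's TPM in GFP-positive cells, and without it the log2 ratio of the cluster was -2.69.

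In the tdTomato line the log2 ratios of summed TPM were -4.07 for the first cluster of chromosome 9, -2.62 for the second and -2.94 for the chromosome 10 cluster, and the medians were -3.35 (13 members), -2.99 (49 members) and -3.47 (36 members). The chromosome 10 cluster held 7.12% of OR TPM in GFP-negative cells but 3.94% in tdTomato-negative, 5.01% in GFP-positive and 2.01% in tdTomato-positive cells. The chromosome 10 members lie on the chromosome of the Taar genes, and their median log2 fold change was -3.40 in the GFP line and -3.47 in the tdTomato line, against -2.55 and -3.04 for the members of chromosome 9. The difference in the GFP line was 0.85, and 0.17 with 0.1 TPM added in place of 1.

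**Figure D4:**
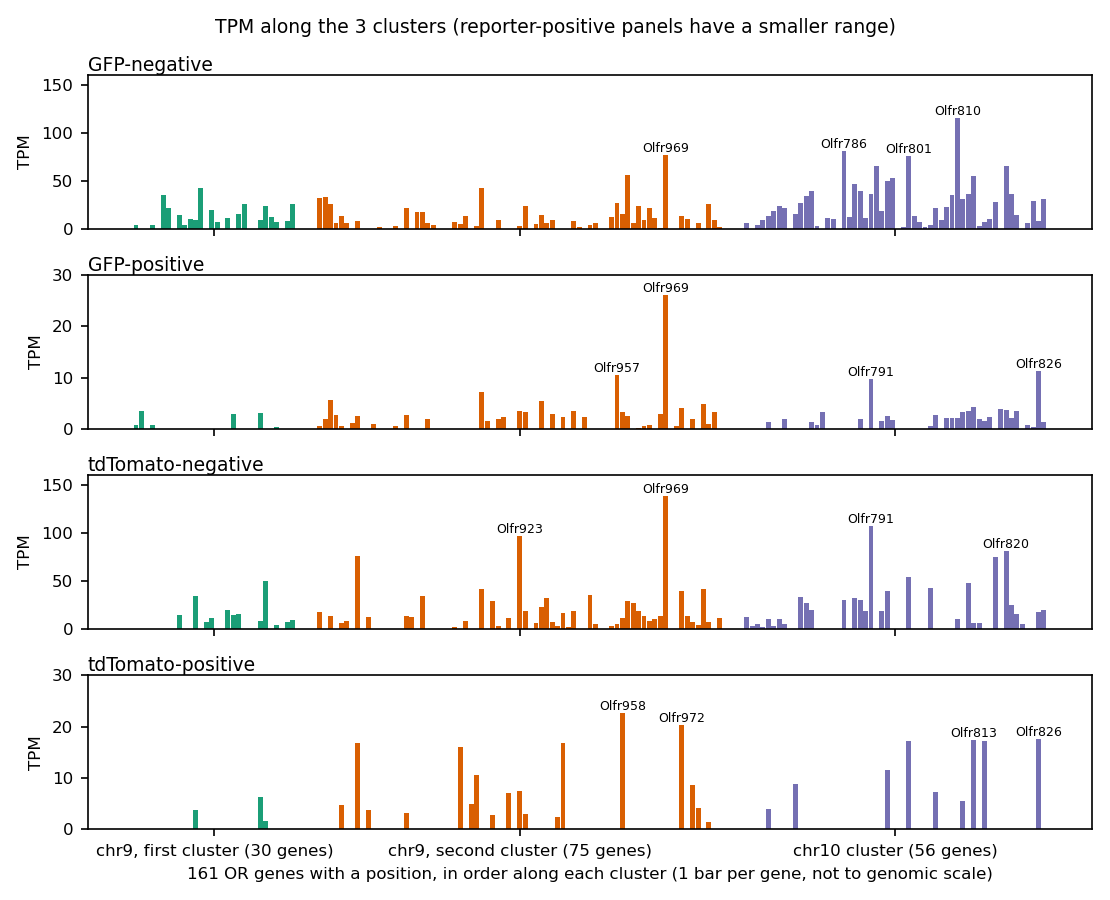
TPM of the 161 members with a position, 1 bar per gene in their order along the first and second cluster of chromosome 9 and the cluster of chromosome 10, in each library (y axes to 160 TPM for reporter-negative and to 30 TPM for reporter-positive cells). In reporter-positive cells the bars are few and scattered, with the first cluster of chromosome 9 nearly empty and the highest bars at Olfr969 (26.1 TPM, GFP-positive) and Olfr958 (22.7 TPM, tdTomato-positive).

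The members were in a different order in the reporter-negative libraries of the lines, though Omp was the highest gene in both. Across the 163 members Spearman's rho between the reporter-negative libraries was 0.43, and 0.35 over the 75 members above 0 in both. The points are genes of 1 library pair and share its scaling. Over the other 962 OR genes rho was 0.53, and over all 24421 genes 0.93. Of the members, 43 were above 0 in GFP-negative cells alone, 14 in tdTomato-negative cells alone and 31 in neither. These were 32.6% and 10.6% of the 132 members above 0 in either library, against 26.4% and 7.85% of other OR genes and 8.55% and 4.34% of all genes. At least 10 TPM in GFP-negative cells and 0 in tdTomato-negative cells was found for 19 members, and the reverse for 7, or 27.9% and 12.1% of the members at that level, against 21.5% and 8.56% of other OR genes and 1.85% and 0.867% of all genes. Of the 10 highest members of each, 3 were shared. On the log2(TPM + 1) scale 55 members (41.7%) were at least 2-fold higher in GFP-negative and 29 (22.0%) in tdTomato-negative cells, where 38.4% and 26.3% of other OR genes and 11.5% and 10.6% of all genes were. The members' summed TPM was 1.17-fold higher in GFP-negative cells.

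The Taar genes and the members had opposite directions. Summed over the 14 olfactory Taar genes the level was 86.1 TPM in GFP-negative, 804.1 in GFP-positive, 60.8 in tdTomato-negative and 3476 in tdTomato-positive cells, and 13 of 14 were at least 2-fold higher in the reporter-positive cells of each line. The ratio of Taar to member TPM was 0.0375 in GFP-negative and 3.84 in GFP-positive cells, and 0.0309 in tdTomato-negative and 12.7 in tdTomato-positive cells. Genes that OR and TAAR OSNs both use were also counted. Of 12 transduction genes, 12 were at least 2-fold lower in the GFP line and 4 in the tdTomato line, with medians of -2.95 and -0.84. Of the 3 genes that help ORs reach the cell surface (Rtp1, Rtp2 and Reep1), 3 and 2 were lower. The mature OSN markers given above include Rtp1 and Rtp2. They also include Gnal, Gng13, Ric8b, Adcy3, Cnga2, Cnga4, Cngb1 and Ano2 of the transduction genes, so these lists are not separate results. Of 11 genes of OR choice and its feedback, such as Lhx2, Ldb1 and Ebf1, 9 and 3 were lower. Lhx2, whose protein binds OR enhancers together with Ebf and Ldb1, was at 416.3 TPM in GFP-negative, 67.5 in GFP-positive, 370.9 in tdTomato-negative and 202.8 in tdTomato-positive cells.

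Windows at the members' RefSeq starts were searched for the letters of a homeodomain motif, TAATTA, which is its own reverse complement, and of an Ebf motif, CCCNNGGG, on both strands. RefSeq (GRCm38.p6) windows of 250 bases before to 50 after the gene start were at hand for 134 members, in 135 windows. In 105 of these the given start was the start codon, which is not a transcription start. Set beside the GENCODE gene starts, 118 of the 135 given starts lay more than 50 bases inside the gene and 17 within 50 bases of its start, so most windows are not sequence before a gene. TAATTA occurred in 23.0% of the members' windows, in 17.8% of those of other OR genes and in 5.29% of all windows. CCCNNGGG was in 0 of 135 windows of the members, in 3.49% of those of other OR genes and in 13.7% of all. Of the 8 members with TAATTA in a window whose given start is not the start codon, Olfr868 and Olfr979 were above 0 in at least 3 libraries. The start given for Olfr979 lies 2215 bases inside its GENCODE gene, so no sequence is shown for it. The start given for Olfr868, whose levels are described above, is also its GENCODE gene start, and the 250 bases before it (chr9:20098376-20098625, plus strand) are shown with the motif in capitals.
Olfr868: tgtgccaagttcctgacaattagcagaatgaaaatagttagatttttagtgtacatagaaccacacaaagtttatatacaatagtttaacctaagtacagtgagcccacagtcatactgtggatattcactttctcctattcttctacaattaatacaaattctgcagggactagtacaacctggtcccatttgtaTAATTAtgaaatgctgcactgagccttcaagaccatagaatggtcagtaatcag
The motif began 54 bases before the start. A match of letters is a description, not a binding site.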

How the data were processed

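RNA-seq of GFP-negative, GFP-positive, tdTomato-negative and tdTomato-positive cells of the MOE was analysed, 1 library each. The authors deposited TPM values per gene, which keep no read counts, so depth is unknown and no interval was computed. Submitters' processing notes name Trimmomatic 0.36, Salmon 1.4.0 and mm10, while the paper's methods name Hisat2, Cufflinks and featureCounts. Which of these tools made the deposited TPM, and how reads shared by several OR genes were assigned, is not given in the sources used here. The labels name a FastPure RNA kit and a VAHTS library kit, the methods a RNeasy kit and Smart-seq2.

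Fold changes are log2 of (TPM + 1), over genes above 0 in either library of a line, and "at least 2-fold" is a size and not a test. Members and gene lists were chosen with earlier results of these data known. Named members were the 5 highest of each library, the 5 largest differences in each direction per line (for decreases, among members above 0 in both libraries; for increases, among members of at least 5 TPM in reporter-positive cells), the 3 highest in both reporter-negative libraries of those at 0 in both reporter-positive ones, and up to 5 pairs of members with the most alike coding sequences among pairs that were both above 0 in some library. Identity was that of coding nucleotides, since protein sequences were not used here. Others were named after their values were seen. Positions and coding sequences came from GENCODE M21 (GRCm38), start windows from RefSeq GRCm38.p6. Scripts used Python 3.11.15 with pandas 2.3.3, NumPy 2.4.6 and Biopython 1.88, and were tested on simulated data. The result of 1 further marker list is not reported here.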

Additional observations from a re-analysis of the deposited data

Results flagged for a closer look

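Members at least 2-fold lower in reporter-positive cells of 1 line and at least 2-fold higher in those of the other numbered 9. They were 10.3% of the 87 members measured in both lines, against 12.3% of the other OR genes and 3.01% of all genes. The difference between the lines was not tested, since each group is 1 library. Their log2 fold changes, that of the GFP line first and that of the tdTomato line next, were -3.40 and 1.27 for Olfr813, -1.63 and 4.18 for Olfr815, -2.63 and 4.10 for Olfr912, and -1.86 and 3.53 for Olfr915. They were -3.99 and 3.29 for Olfr774, -2.58 and 3.04 for Olfr806, and -2.89 and 2.71 for Olfr811. The reverse direction was found for Olfr857 (1.94 and -3.94) and Olfr978 (2.55 and -5.42). Of these genes only Olfr813 was above 0 in all 4 libraries. The others were listed at 0 in at least 1 library, so that their values depend on the 1 TPM that was added, and Olfr811, Olfr857 and Olfr978 were named after their values were seen.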

How the results depend on the processing

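No group had more than 1 library. No paired analysis and no test were run. Of 83 values of the summary results under an alternative, 58 stayed close to the reported value and 25 moved. With the libraries scaled to the same mature OSN marker level, the log2 ratio of summed member TPM was -0.40 in the GFP line and -1.80 in the tdTomato line, the medians were -1.24 and -2.20, and 69 members were lower and 29 higher by at least 2-fold in the GFP line. Median-ratio scaling gave -2.57 for the sum in the GFP line. These scalings moved the median of all genes by 3.06 and 0.88 (log2) in the GFP line and by 1.04 and 0.16 in the tdTomato line. With 0.1 TPM added, the medians were -4.38 (GFP line) and -6.17 (tdTomato line), and the difference between chromosome 9 and 10 members in the GFP line was 0.17. With 10 TPM added, the medians were -0.94 and -1.03, with 62 and 50 members lower and 0 and 3 higher. Including members at 0 in both libraries, the medians were -2.13 and -0.36. At least 4-fold higher in the GFP line were 4 members, and 18 were at least 2-fold higher against the other line's reporter-negative library. At least 5 TPM was reached by 7 members in GFP-positive and 18 in tdTomato-positive cells, in place of 55 and 30 at 1 TPM or more. The 5 highest members held 18.0%, 25.3% and 34.7% of member TPM in GFP-negative, tdTomato-negative and tdTomato-positive cells. None of these summary results changed direction.

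Alternatives for single members were chosen after seeing the data. Scaled to mature OSN markers, log2 fold changes in the GFP line had the opposite sign for Olfr969 (1.47), Olfr957 (1.63), Olfr791 (1.13), Olfr916 (0.49), Olfr884 (1.22), Olfr958 (0.73), Olfr972 (1.21), Olfr815 (0.71), Olfr806 (0.10), Olfr924 (0.19) and Olfr824 (0.21). Leaving out members with near-identical protein was not run, as proteins were not used here, and leaving out those with coding sequences at least 95% identical to another OR moved neither sums nor medians beyond the limit of 0.58 (log2).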
